A study of Mus musculus with 4 samples.

Results

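The miR-99/100 and miR-125 families were followed in late mouse embryos with and without estrogen receptor alpha. They are represented by 7 TaqMan real-time PCR assays of the 375 microRNA assays read in all 4 samples, chosen by assay name: mmu-miR-99a, mmu-miR-99b and mmu-miR-100, and both arms of miR-125a and miR-125b. Whole embryos of the C57BL/6 strain were taken at E18.5, shortly before birth. RNA came from 2 samples of the ER-alpha KO genotype, a knockout of the nuclear estrogen receptor encoded by Esr1, and from 2 wild-type samples. The sources used here do not give the knockout allele, the sex of the embryos, or whether a sample was a single embryo or a pool. The assays read small RNAs, so the Esr1 transcript was not analysed here, and p-values measure the spread between these samples, which may be technical.

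The mature products of these families arise from 3 related clusters in which a miR-99/100 gene, a let-7 gene and a miR-125 gene follow each other. The miR-125 family is the vertebrate counterpart of lin-4, the Caenorhabditis elegans microRNA that times larval development, and both miR-125 and let-7 repress the mRNA of Lin28, a pluripotency factor that in turn blocks let-7 maturation. The miR-99/100 family is known in human cells for repressing the kinase mTOR. Members of both families accumulate as cells differentiate and are abundant in brain and mesenchymal tissues.

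The sequences below show which members could repress the same targets, because a microRNA recognises its targets mainly through its seed, bases 2 to 8 from the 5′ end, printed here in capitals. Mature sequences are those of RefSeq on GRCm38.p6, and assays named without an arm were matched to the 5′ arm. All 3 members of the miR-99/100 family carry the seed ACCCGUA, and both 5′ arms of the miR-125 family carry CCCUGAG.
mmu-miR-99a: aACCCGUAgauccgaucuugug
mmu-miR-99b: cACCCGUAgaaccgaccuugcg
mmu-miR-100: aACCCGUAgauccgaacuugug
mmu-miR-125a-5p: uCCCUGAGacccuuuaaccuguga
mmu-miR-125b-5p: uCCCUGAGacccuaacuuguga

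With positions counted from 1 at the 5′ end, miR-99a differs from miR-100 at a single base of 22 (A16U, the base of miR-100 given before the position). miR-99b differs from miR-100 at 4 bases (A1C, U11A, A16C and U21C). The assays of miR-99a and miR-100 therefore had to separate templates that are identical at 21 of 22 bases, and how far each reads the other was not tested. miR-125a-5p and miR-125b-5p are identical over their 13 bases at the 5′ end and differ in length, with 24 and 22 bases.

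The genes lie on the plus strand of GRCm38.p6. Mir100 (mature arm at chr9:41531437-41531458), Mirlet7a-2 and Mir125b-1 (chr9:41581940-41581961) span 50578 bases within the long noncoding gene Mir100hg. Mir99a (chr16:77598940-77598961), Mirlet7c-1 and Mir125b-2 (chr16:77646279-77646300) span 47408 bases. Mir99b (chr17:17830194-17830215), Mirlet7e and Mir125a (chr17:17830817-17830840) span 692 bases within the protein-coding gene Spaca6. Mir125b-1 and Mir125b-2 give the same 5′ arm, so the miR-125b-5p assay sums products of chromosomes 9 and 16.

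The 3′ arms are the minor products of the same hairpins, and the arms are compared further on. In the Mir125a hairpin (chr17:17830812-17830879, plus strand) the 5′ and then the 3′ arm are in capitals.
Mir125a hairpin: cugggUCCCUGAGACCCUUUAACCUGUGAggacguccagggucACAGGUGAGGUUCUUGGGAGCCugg
For miR-125b the hairpins have different 3′ arms, and the panel's name, miR-125b-3p, does not say which of them its assay reads; both are shown with their seeds in capitals.
mmu-miR-125b-1-3p: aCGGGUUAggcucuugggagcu
mmu-miR-125b-2-3p: aCAAGUCAgguucuugggaccu

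The values are threshold cycles (Ct): a lower Ct means more RNA, and a difference of 1 cycle is close to 1 log2 unit. No read depth exists for PCR. The 2 ER-alpha KO samples detected 260 and 259 microRNAs (Ct no later than 35) and the wild-type samples 290 and 254; the 229 found in all 4 samples were tested. Wild-type replicate 1 stood apart. Across the tested assays, which are not independent, Pearson's r between its Ct values and those of another sample was 0.939 to 0.954, and among the remaining samples it was 0.978 to 0.989. After a constant of 0.273 cycles shared by its wells is taken off, all 7 members in wild-type replicate 1 lie within 0.1 cycle of a whole cycle, against 2 and 1 of 7 in the ER-alpha KO replicates and 2 of 7 in wild-type replicate 2. Over all assays with a Ct, U6 left out, this share was 90.0% in wild-type replicate 1. It was 21.0% and 22.6% in the ER-alpha KO replicates and 26.5% in wild-type replicate 2. The 4 U6 wells of wild-type replicate 1 spread from Ct 15.58 to 16.72. Fold changes of the tested members are therefore given with and without that sample, and statements on overlap between the genotypes use all 4 samples. The part of these features in the results was not tested.

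Of 21 assays for microRNAs typical of muscle, nerve, liver, blood, vessels, skin and pluripotent cells, 17 were detected in all 4 samples. Of the 4 pluripotent and placental assays 3 were detected in 3 samples, with wild-type replicate 1 beyond the limit, and miR-294 in none. The 4 neural assays (miR-124, miR-9, miR-128a and miR-138) stand for a tissue rich in both families. Their summed level was 5.04 and 5.25 in ER-alpha KO and 5.21 and 4.64 in wild-type samples. Levels are in log2 units relative to the median microRNA of each sample. These sums overlapped. Single neural assays went both ways, with log2 fold changes of -0.92 for miR-124, -0.23 for miR-9, 0.34 for miR-128a and 1.39 for miR-138. Both ER-alpha KO samples lay below both wild-type samples for miR-124 and above them for miR-138. Without wild-type replicate 1 and re-centred, these fold changes were -0.62, 0.02, -0.35 and 0.39. With the centring of all 4 samples kept they were -0.29, 0.35, -0.02 and 0.73. The liver assay miR-122 stood at 3.37 and 2.56 in ER-alpha KO and at 2.01 and 2.36 in wild-type samples, and the summed skin assays at 6.23 and 6.43 in ER-alpha KO and 5.04 and 6.07 in wild-type samples, without overlap. The skin sum is mostly miR-203 (log2 fold change 0.81), while the other skin assay, miR-205, overlapped and had -0.46. Of all tested microRNAs, 33.2% had both ER-alpha KO samples above both wild-type samples. Without wild-type replicate 1 and re-centred, log2 fold changes were 0.28 for miR-122, -0.08 for miR-203 and -0.10 for miR-205. With the centring of all 4 samples kept they were 0.61, 0.25 and 0.23. Summed assays of striated muscle, blood, endothelium and smooth muscle overlapped between the genotypes. The part of these markers in the members' values was not tested.

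All 7 members gave a Ct in every sample, and 6 were detected in all 4. The earliest was miR-125b-5p, with Ct 25.8 and 24.9 in ER-alpha KO and 26.2 and 24.3 in wild-type embryos; its mean Ct of 25.3 ranked 46th of the 229 tested microRNAs. miR-125a-5p followed at 26.5 and 25.5 in ER-alpha KO and 28.3 and 24.9 in wild-type embryos (mean 26.3, rank 68). The widest range among the 5′ arms was therefore that of miR-125a-5p, and both of its extremes were wild-type samples.

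Within the miR-99/100 family, miR-100 had Ct 26.9 and 26.5 in ER-alpha KO and 27.2 and 26.3 in wild-type embryos (mean 26.7, rank 82). miR-99a was read at 27.1 and 27.1 in ER-alpha KO and 27.2 and 26.6 in wild-type embryos (mean 27.0, rank 90). miR-99b came later, at 28.5 and 28.2 in ER-alpha KO and 28.3 and 27.3 in wild-type embryos (mean 28.1, rank 113). The order of miR-125b-5p before miR-125a-5p held in all 4 samples. That of miR-100 before miR-99a before miR-99b was also read in all 4, although miR-100 and miR-99a were 0.02 cycles apart in wild-type replicate 1. miR-125a-5p came before all members of the miR-99/100 family in 3 samples. In wild-type replicate 1 it came after miR-100 and miR-99a and 0.008 cycles before miR-99b. Readings of that sample lie near whole cycles, so gaps this small there amount to ties. Different assays may have different efficiencies, so this order describes the readings.

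**Figure D1:**
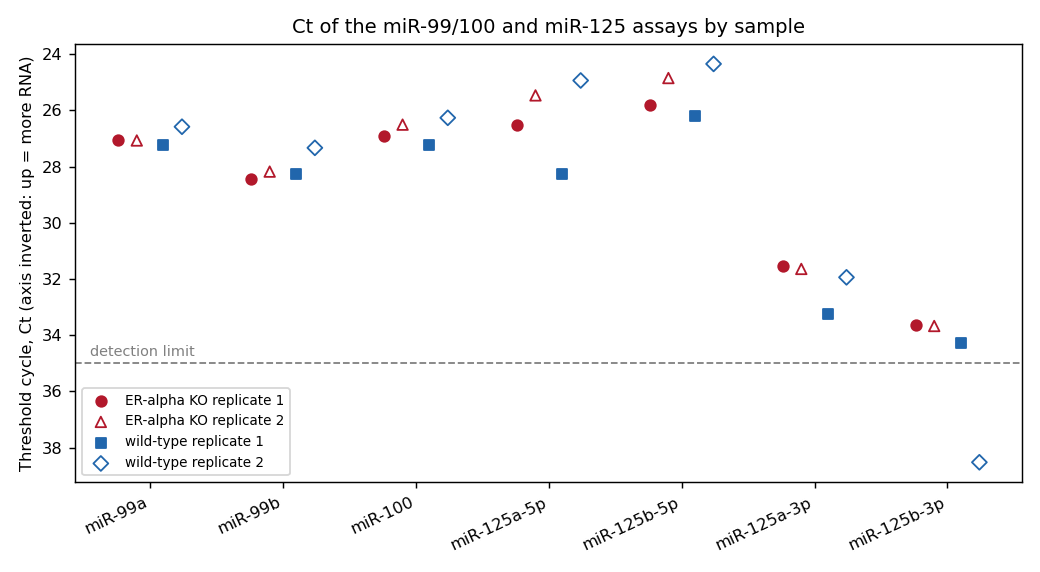
Ct of each of the 7 assays in each sample, with the axis inverted so that more RNA is higher; red marks ER-alpha KO, blue wild-type, and the dashed line is the detection limit of 35. The 5′ arms lie between Ct 24.3 and 28.5 and the 3′ arms later, with miR-125b-3p of wild-type replicate 2 at 38.5 beyond the limit.

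The comparison of genotypes asked whether the members differ between ER-alpha KO and wild-type embryos. Each Ct was centred on the median tested microRNA of its sample, and the level is minus this centred Ct, in log2 units. All 3 members of the miR-99/100 family had lower mean levels in ER-alpha KO embryos, with log2 fold changes of -0.26 to -0.81, and none of the differences passed limma's test. Without wild-type replicate 1, 241 microRNAs were detected in the remaining samples, and centring on these shifts every fold change by -0.33 against centring kept on the 229. Values without that sample are therefore given re-centred on the 241, followed by those with the centring kept, an alternative chosen after seeing the data. A fit with a sample left out has 1 sample in that genotype, which is assumed to vary like the 2 samples of the other. In RNA of whole embryos, fewer cells of a type and less RNA per cell cannot be told apart.

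The level of miR-99b, of the compact chromosome 17 cluster, was -0.26 and -0.36 in ER-alpha KO and 0.98 and 0.03 in wild-type embryos. Both ER-alpha KO samples lay below both wild-type samples, and wild-type replicate 1 was the highest. The means were -0.31 ± 0.07 in ER-alpha KO and 0.50 ± 0.67 in wild-type embryos (SD, n = 2 each), a log2 fold change of -0.81 (standard error 0.64, 95% interval -2.07 to 0.44, limma adjusted p = 0.939), or 0.57-fold. Without wild-type replicate 1 it was -0.67, or -0.34 with the centring kept. The difference was within the error of the fit.

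The level of miR-99a, encoded with let-7c and miR-125b on chromosome 16, was 1.13 and 0.75 in ER-alpha KO and 1.99 and 0.78 in wild-type embryos. The groups overlapped, and wild-type replicate 1 stood apart from 3 samples that spanned 0.38 log2 units. The log2 fold change was -0.44 (95% interval -1.70 to 0.81, limma adjusted p = 0.939) and -0.17 without wild-type replicate 1, or 0.16 with the centring kept. The level of miR-100, from the chromosome 9 cluster, was 1.27 and 1.31 in ER-alpha KO and 2.01 and 1.10 in wild-type embryos. It overlapped as well, with a log2 fold change of -0.26 (interval -1.51 to 0.99, limma adjusted p = 0.939) and -0.14 without wild-type replicate 1, or 0.19 with the centring kept. Scaled to the 5 small-RNA controls instead, miR-100 stood at 0.0165. Leaving out wild-type replicate 2 instead gave -0.93 for miR-99a and -0.60 for miR-100. The signs of miR-99a and miR-100 without wild-type replicate 1 thus depended on the centring.

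In wild-type replicate 1 all 3 members of the miR-99/100 family were above the median of the other 3 samples, by 1.21 for miR-99a, 1.24 for miR-99b and 0.74 for miR-100 in log2 units. Over all tested microRNAs the median of that deviation was -0.14, with 5% below -1.30 and 5% above 1.72. Without that sample miR-99a and miR-100 varied by 0.38 and 0.22 log2 units across the remaining 3 samples, below the median range of 0.66 over all tested microRNAs, and miR-99b varied by 0.39.

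For the 5′ arms of miR-125 the comparison turned on single samples. The level of miR-125b-5p was 2.39 and 2.97 in ER-alpha KO and 3.03 and 3.02 in wild-type embryos. The groups did not overlap, but ER-alpha KO replicate 2 was 0.04 below wild-type replicate 2, and the gap to the wild-type samples came from ER-alpha KO replicate 1. The means were 2.68 ± 0.41 in ER-alpha KO and 3.02 ± 0.01 in wild-type embryos (SD, n = 2 each), a log2 fold change of -0.34 (95% interval -1.59 to 0.91, limma adjusted p = 0.939), and -0.67 without wild-type replicate 1, or -0.34 with the centring kept. Without ER-alpha KO replicate 1 it was -0.05, and without ER-alpha KO replicate 2 it was -0.71.

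The level of miR-125a-5p was 1.68 and 2.35 in ER-alpha KO and 0.98 and 2.43 in wild-type embryos. The ER-alpha KO samples lay between the wild-type samples, and wild-type replicate 1 was the lowest. The log2 fold change was 0.31 (95% interval -0.94 to 1.57, limma adjusted p = 0.939), with -0.74 when wild-type replicate 1 was left out (-0.41 with the centring kept) and -0.10 without ER-alpha KO replicate 2, so its direction was not settled. ER-alpha KO replicate 1 stood 0.74 log2 units below wild-type replicate 2 for miR-125a-5p and 0.63 below it for miR-125b-5p, while ER-alpha KO replicate 2 stood 0.07 and 0.04 below it. For both 5′ arms the offset from wild-type replicate 2 was thus carried by ER-alpha KO replicate 1. The panel as a whole also differed more in that sample. Over all tested microRNAs the median absolute difference from wild-type replicate 2 was 0.56 for ER-alpha KO replicate 1 and 0.26 for ER-alpha KO replicate 2.

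The 3′ arms were read latest of the members. The level of miR-125a-3p was -3.36 and -3.82 in ER-alpha KO and -4.01 and -4.58 in wild-type embryos, from Ct 31.5 and 31.6 in ER-alpha KO and 33.2 and 31.9 in wild-type embryos. Both ER-alpha KO samples lay above both wild-type samples. The log2 fold change was 0.71 (standard error 0.64, 95% interval -0.55 to 1.96, limma adjusted p = 0.939), or 1.63-fold, and 0.66 without wild-type replicate 1, or 0.99 with the centring kept. It was the highest fold change of the 6 tested members and ranked 31st of the 229.

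miR-125b-3p had Ct 33.6 and 33.7 in ER-alpha KO and 34.3 and 38.5 in wild-type embryos. Wild-type replicate 2, the sample with the earliest Ct for miR-125b-5p, was the latest here and lay beyond the detection limit, so this member was not tested in the comparison of all 4 samples. With no filter on detection its log2 fold change over all 4 samples was 2.45 (limma adjusted p = 0.875), which holds that late reading. With wild-type replicate 2 left out it was -0.48 (limma adjusted p = 0.345), so its direction turned with that sample. Each sample has 1 well for this assay, so these data hold no repeat of the late reading.

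**Figure D2:**
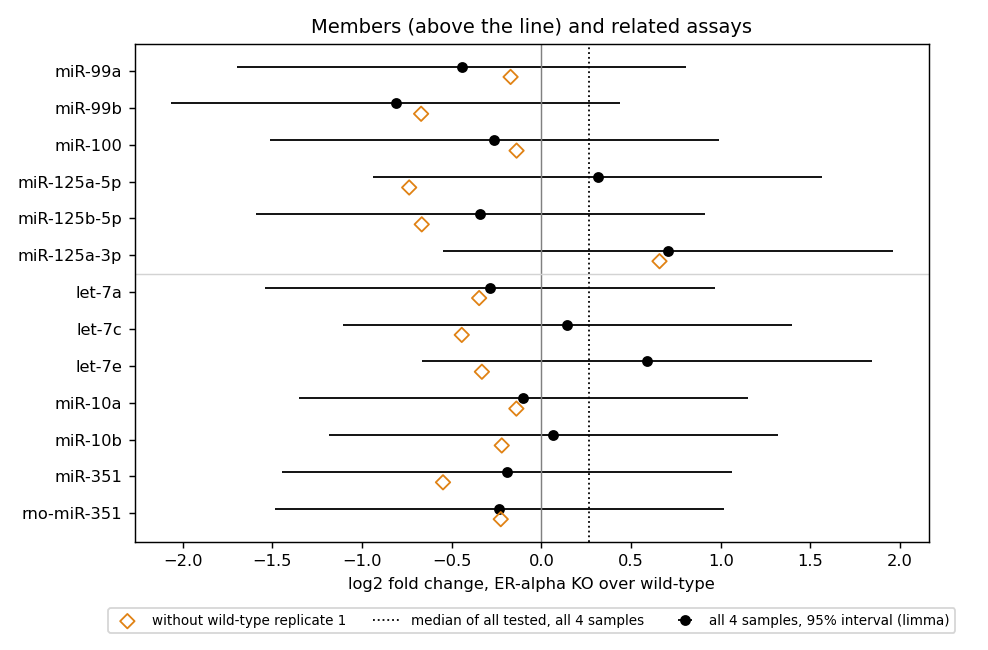
Log2 fold change of ER-alpha KO over wild-type for the 6 tested members and, below the grey line, for related assays. Black points carry 95% intervals of the limma fit on all 4 samples, orange diamonds leave out wild-type replicate 1 (re-centred), and the dotted line is the median of all tested microRNAs at 0.26; each interval includes 0, and miR-125a-5p, let-7c, let-7e and miR-10b change sign without that sample.

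Of the 6 tested members 0 passed an adjusted p of 0.05 in limma, where 0% of the 229 tested microRNAs did, and 0 had an unadjusted p under 0.05, against 4.37% of all (10 microRNAs). With an ordinary variance per assay, 0 members and 3.93% of all had an unadjusted p under 0.05. Over the settings that keep all 4 samples, the lowest limma adjusted p of a member was 0.694, for miR-99b. Among these settings, miR-99b had an unadjusted p under 0.05 by limma with detection at a Ct of 32 (0.0351). There, 3 of 177 microRNAs had one. An unadjusted p under 0.05 by limma also arose for miR-125a-3p with quantile normalization (0.0248), where 10 of 229 microRNAs had one. Without wild-type replicate 2, the spread came from the ER-alpha KO samples alone, and log2 fold changes were -1.17 for miR-99b and -0.93 for miR-99a. Of the members, 4 of 6 had a log2 fold change below 0, against 31.9% of all tested microRNAs. Without wild-type replicate 1 it was 5 of 6, against 53.3% of the same 229 microRNAs, and with the centring kept 3 of 6, against 24% of them. The median over the tested members was -0.30, beside 0.26 over all, and -0.42 without wild-type replicate 1, beside -0.03 over all. With the centring kept these medians were -0.09 and 0.30.

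Set against the median fold change of all tested microRNAs, miR-99b stood at -1.08, miR-99a at -0.71, miR-125b-5p at -0.60 and miR-100 at -0.53, while miR-125a-5p stood at 0.05 and miR-125a-3p at 0.44. Below that median were thus 4 of 6 members, against 49.8% of all. These distances do not change when whole samples are shifted by a constant. Without wild-type replicate 1 the distance was -0.64 for both miR-99b and miR-125b-5p, -0.14 for miR-99a, -0.11 for miR-100, -0.71 for miR-125a-5p and 0.69 for miR-125a-3p. Both ER-alpha KO samples lay below both wild-type samples for 2 of 6 members (miR-99b and miR-125b-5p), against 6.11% of all tested microRNAs, and above them for 1 of 6 (miR-125a-3p), against 33.2%.

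**Figure D3:**
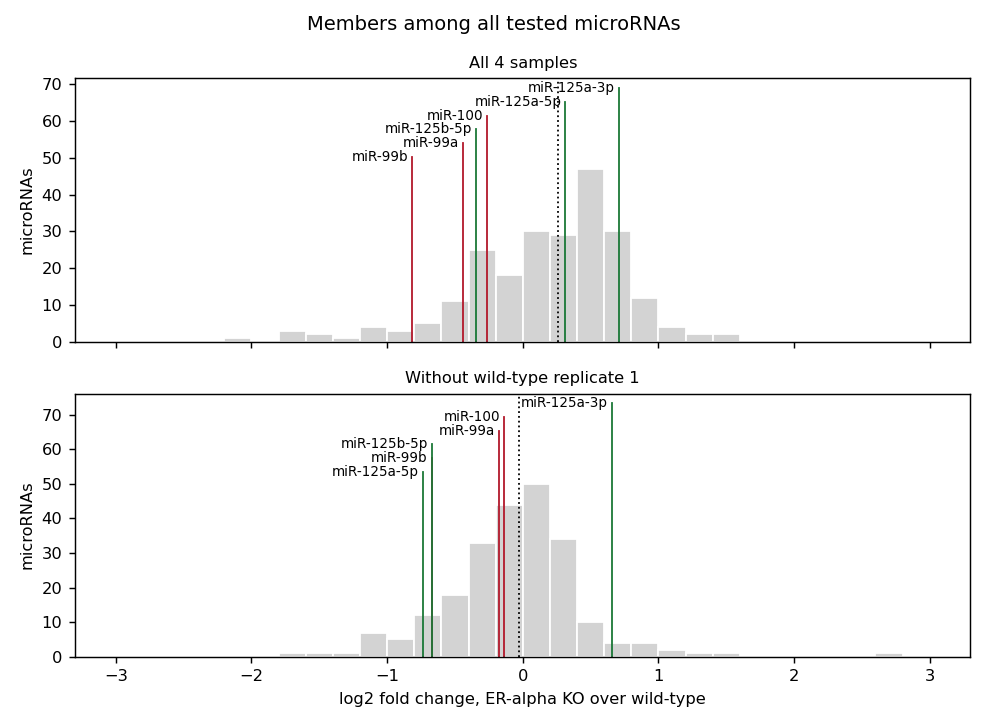
Histograms of the log2 fold changes of the 229 tested microRNAs (grey bars, number of microRNAs), with members marked by lines whose height has no meaning, red for miR-99/100 and green for miR-125; the dotted line is the median. With all 4 samples the miR-99/100 members lie between -0.81 and -0.26, and without wild-type replicate 1 (re-centred) miR-99a and miR-100 lie near the median while miR-125a-5p moves to -0.74.

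Ratios between assays of the same sample need no scaling between samples. They were compared for 11 pairs of arms, cluster mates and relatives, each as a log2 ratio of the first assay over the second. By the exact permutation test (two-sided), a comparison of 2 samples with 2 cannot go below p = 0.333. Of the 11 pairs, 2 reached that value, both involving miR-99b, and every p adjusted over the pairs was 1.

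The 3′ arm of miR-125a was read later than its 5′ arm in every sample, with ratios of -5.04 and -6.17 in ER-alpha KO and -4.99 and -7.00 in wild-type embryos. The groups overlapped, and the arm ratio varied by more within each genotype than between the genotype means, which differed by 0.39 (ER-alpha KO minus wild-type). For miR-125b the ratio of the 3′ over the 5′ arm was -7.84 and -8.82 in ER-alpha KO and -8.08 and -14.2 in wild-type embryos. Apart from wild-type replicate 2, where the 3′ arm was beyond the detection limit, these values lay within 1 log2 unit of each other.

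Among members with a shared seed, the ratio of miR-99a over miR-100 was -0.14 and -0.56 in ER-alpha KO and -0.02 and -0.32 in wild-type embryos, and the groups overlapped. The ratio of miR-99a over miR-99b was 1.39 and 1.11 in ER-alpha KO and 1.01 and 0.75 in wild-type embryos. Both ER-alpha KO samples were higher here, by 0.37 on average, and by 0.50 without wild-type replicate 1. The ratio of miR-125a-5p over miR-125b-5p was -0.70 and -0.62 in ER-alpha KO and -2.04 and -0.59 in wild-type embryos. Leaving out wild-type replicate 1, these 5′ arms, which come from different chromosomes, kept a ratio within 0.11 log2 units in the remaining 3 samples.

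Among cluster mates, miR-100 over let-7a had the narrowest range, 2.91 and 2.81 in ER-alpha KO and 3.02 and 2.65 in wild-type embryos, with wild-type replicate 1 close to the rest. The let-7a assay also reads products of other let-7a genes, and the let-7c assay those of Mirlet7c-2 on chromosome 15, which gives the same sequence. The ratio of miR-99a over let-7c was 0.60 and 0.51 in ER-alpha KO and 2.00 and 0.28 in wild-type embryos. That of miR-99b over let-7e was -2.55 and -2.35 in ER-alpha KO and 0.01 and -2.11 in wild-type embryos. In the 692-base cluster miR-99b over miR-125a-5p was -1.95 and -2.71 in ER-alpha KO and -0.008 and -2.4 in wild-type embryos. For these 3 ratios wild-type replicate 1 was the highest sample, and the difference between genotypes moved with it: without that sample it was 0.27 in place of -0.59 for miR-99a over let-7c, -0.34 in place of -1.40 for miR-99b over let-7e, and 0.07 in place of -1.13 for miR-99b over miR-125a-5p.

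The miR-125b-5p assay sums both of its clusters, so its partners there were compared in turn. The ratio of miR-99a over miR-125b-5p was -1.26 and -2.22 in ER-alpha KO and -1.04 and -2.24 in wild-type embryos. The ratio of miR-100 over miR-125b-5p was -1.12 and -1.66 in ER-alpha KO and -1.02 and -1.92 in wild-type embryos. In both, replicate 1 of each genotype was higher than replicate 2 of either genotype, and the genotype means differed by -0.10 and 0.08.

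**Figure D4:**
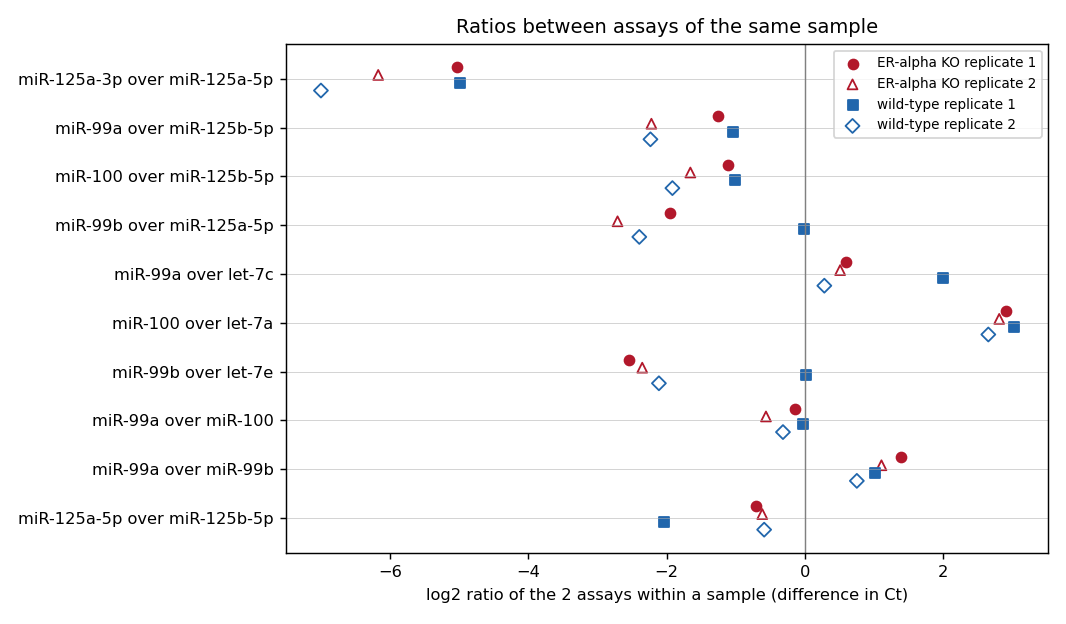
Log2 ratio of assay pairs within each sample for the 10 pairs in which both assays were detected in all samples; red marks ER-alpha KO and blue wild-type. Wild-type replicate 1 (filled square) lies apart for miR-99b over miR-125a-5p, miR-99b over let-7e, miR-99a over let-7c and miR-125a-5p over miR-125b-5p, while miR-100 over let-7a stays between 2.65 and 3.02.

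The let-7 assays of the same clusters, chosen by genome position, were compared with the members. 0 of the 3 passed the test in either direction. Their log2 fold changes were -0.29 for let-7a, 0.14 for let-7c and 0.59 for let-7e, and -0.35, -0.44 and -0.33 without wild-type replicate 1, or -0.02, -0.11 and -0.0007 with the centring kept. In the rest of the let-7 family (let-7b, let-7d, let-7f, let-7g, let-7i and miR-98) 0 of 6 passed an adjusted p of 0.05, and 1, miR-98 with 1.59, had an unadjusted p under 0.05. The median of these 6 was 0.18, beside 0.26 over all tested microRNAs, and -0.04 without wild-type replicate 1 after re-centring, beside -0.03 over all.

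Of the other panel assays with a RefSeq match, miR-351 had the same seed as the 5′ arms of miR-125, as its mature sequence shows (chrX:53053315-53053338, minus strand).
mmu-miR-351: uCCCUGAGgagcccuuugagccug
It shares the 8 bases at the 5′ end with miR-125a-5p. Of 335 mouse assays, 280 could be matched by name. The level of mmu-miR-351 was -1.07 and -1.27 in ER-alpha KO and -1.0 and -0.95 in wild-type embryos, with both ER-alpha KO samples below. This held for 6.11% of all tested microRNAs, and the levels of the rat assay rno-miR-351 overlapped between the genotypes. The log2 fold change of mmu-miR-351 was -0.19 and that of the rat assay rno-miR-351 was -0.24, and -0.55 and -0.23 without wild-type replicate 1, or -0.22 and 0.10 with the centring kept; neither passed the test.

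The Hox-cluster microRNAs miR-10a and miR-10b resemble miR-100 in sequence but not in seed, as miR-10a shows (chr11:96317186-96317208, plus strand).
mmu-miR-10a: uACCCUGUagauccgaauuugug
It shares a run of 11 bases with miR-100, guagauccgaa, and has the seed ACCCUGU. Log2 fold changes were -0.10 for miR-10a and 0.07 for miR-10b, and -0.14 and -0.22 without wild-type replicate 1, or 0.19 and 0.11 with the centring kept; neither passed the test.

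Likeness between assays was measured over the 4 samples as the root mean square distance between levels, each taken relative to its own mean. Closest to the mean pattern of the 5 tested 5′ arms were miR-675-3p (0.07 log2 units), which is processed from the imprinted H19 transcript, the cluster partner let-7a (0.08), miR-496 (0.19), miR-129-3p (0.19) and miR-381 (0.19). The median distance of all 223 other microRNAs was 0.49. The log2 fold changes of these 5 lay between -0.41 and -0.17, computed from the same 4 levels by which they were chosen. The members themselves lay 0.19 (miR-125b-5p), 0.21 (miR-100), 0.35 (miR-99b), 0.37 (miR-99a) and 0.72 (miR-125a-5p) from that mean pattern.

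Between members, miR-99a and miR-100 were 0.20 log2 units apart and miR-99a and miR-99b 0.23; for miR-99b, miR-99a was the 4th closest of 228 microRNAs. From miR-100, let-7a was the 3rd closest, at 0.14. The 5′ arms miR-125a-5p and miR-125b-5p were 0.61 apart, where miR-125b-5p ranked 84th for miR-125a-5p. Without wild-type replicate 1 they were 0.05 apart and each ranked 2nd for the other, while miR-99a ranked 50th for miR-99b. Which assays run alike thus differed with that sample, and 4 samples give no test of it.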

How the data were processed

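RNA extracted with TRIzol was assayed by TaqMan PCR (7900HT, 40 cycles), per the labels' protocols. The authors deposited a threshold cycle (Ct) for each well, as the file headers name it; threshold, baseline and any normalization by the authors are not given in the sources used here. Samples were grouped by the genotype in their titles. Undetermined wells, and the 39 wells of wild-type replicate 1 above cycle 40, were treated as not amplified; U6 is the mean of 4 wells. Lines without an assay were not used.

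Levels are minus Ct, centred on the median of the 229 microRNAs with a Ct of 35 or lower in all samples. ER-alpha KO was compared with wild-type in R 4.3.3 by limma 3.58.1 (lmFit and eBayes with genotype alone in the model, two-sided), and p-values were adjusted by Benjamini-Hochberg across the 229 microRNAs. Because eBayes estimated infinite prior degrees of freedom, 1 standard error serves every assay. The procedure was tested on simulated data with independent noise of the same spread in every assay and sample. That simulation held no sample like wild-type replicate 1, so it cannot show how that sample affects the fit. Pair ratios used exact permutation tests (scipy 1.17.1). With 2 samples per group, precision is low, and a fold change takes 1 cycle as a doubling.

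The members and lists were chosen with earlier results of these data known. Named beside the members were the controls, let-7 cluster partners, assays with a member's seed, miR-10a and miR-10b, the 5 closest patterns and tissue markers. The rest of the let-7 family was a fixed list, from which miR-98 was named after its value was seen. Alternatives were 4 scalings (controls, none, quantile, average profile), detection at a Ct of 32, no filter, the constant removed, each sample left out, a replicate block and other variance settings. A Ct of 38 was used only to count detected members. Keeping the centring of all 4 samples when wild-type replicate 1 is left out was added after seeing the data.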

Additional observations from a re-analysis of the deposited data

How the results depend on the processing

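In each alternative fitted with limma, the number of members past an adjusted p of 0.05 was 0; no fit was made at a Ct of 38. With a sample left out, the spread comes from the genotype that keeps 2 samples. The count over all microRNAs was 0 with 2 exceptions. With wild-type replicate 1 left out and the centring of all 4 samples kept, chosen after seeing the data, 1 passed, mmu-miR-687 (limma adjusted p = 0.000311; no member, named after its value was seen). With the replicate number as a replicate block 1 passed (adjusted p = 0.0058 in limma), mmu-miR-324-3p, which is no member and was named after its value was seen. At an unadjusted p under 0.05 the count of 10 became 68 without wild-type replicate 2, 19 under the block, 4 without wild-type replicate 1 or with average-profile centring, 3 with control scaling or detection at a Ct of 32, 1 without ER-alpha KO replicate 2 and 0 without normalization. The deviations of same-numbered samples correlated with r = 0.369 across assays, but the labels do not say what the numbers stand for and only 2 pairs exist, so the samples were taken as unpaired. Under the block the log2 fold changes of the members were as without it (miR-99b -0.81), and their lowest limma adjusted p was 0.732.

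The median log2 fold change over the tested members was -0.30. It was -0.010 without normalization, -0.68 with quantile normalization, -0.61 with average-profile centring and -0.64 with detection at a Ct of 32. In that last setting 5 members remained. Leaving out a sample and re-centring gave -0.48 to -0.15. The value of -0.48 was without wild-type replicate 2, where miR-125b-3p entered and the median was over 7 members. With wild-type replicate 1 left out and the centring kept, the median was -0.09. These moves partly follow the median of all tested microRNAs, which was 0.55 without normalization, 0.54 with control scaling, 0.05 with quantile normalization, -0.05 with average-profile centring and 0.05 with detection at a Ct of 32. miR-99b, miR-125b-5p and miR-125a-3p kept their direction under every alternative fitted (miR-125a-3p was not tested at a Ct of 32). miR-100 was 0.0165 with control scaling and 0.029 without normalization. With wild-type replicate 1 left out and the centring kept, miR-99a was 0.16, miR-100 0.19 and miR-125a-5p -0.41. Leaving out a sample and re-centring gave -0.74 to 1.15 for miR-125a-5p, -0.93 to -0.17 for miR-99a, -1.17 to -0.67 for miR-99b, -0.60 to -0.14 for miR-100, -0.71 to -0.05 for miR-125b-5p and 0.47 to 0.86 for miR-125a-3p.

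With a sample left out, the difference in log2 ratio (ER-alpha KO minus wild-type) kept its sign for miR-99a over miR-99b (0.23 to 0.51) and miR-99b over let-7e (-2.46 to -0.34), and changed sign in the others. It ranged from -0.61 to 1.40 for miR-125a-3p over miR-125a-5p and from -0.25 to 5.84 for miR-125b-3p over miR-125b-5p. It was -0.70 to 0.50 for miR-99a and -0.37 to 0.53 for miR-100, each over miR-125b-5p. It was -2.32 to 0.0665 for miR-99b over miR-125a-5p, -1.45 to 0.27 for miR-99a over let-7c, -0.16 to 0.21 for miR-100 over let-7a, -0.39 to 0.0314 for miR-99a over miR-100 and -0.07 to 1.38 for miR-125a-5p over miR-125b-5p. The cause of these moves was not tested beyond the sample left out.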
